A study of Homo sapiens with 4 samples.

Results

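Matrix metalloproteinases (MMPs), ADAMs, ADAMTSs and the tissue inhibitors of metalloproteinases (TIMPs) were examined in MDA-MB-231 cells after TEAD palmitoylation was blocked with a small molecule. The members were the protein-coding genes of the deposited table whose symbol is MMP, ADAM or ADAMTS followed by a number, or TIMP1 to TIMP4. This rule took 65 of 48162 listed genes, namely 22 MMPs, 20 ADAMs, 19 ADAMTSs and 4 TIMPs. It used names and gene types alone, no measured value. MMP12, ADAM5, ADAM6 and MMP23A were left out because the table does not list them as protein-coding.

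The enzymes are zinc-dependent endopeptidases. MMPs cut collagens and other matrix proteins, either secreted or held at the cell surface (the membrane-type MMPs), ADAMs are membrane-anchored and many of them cut the ectodomains off surface proteins, and ADAMTSs are secreted and process procollagens and proteoglycans. TIMPs bind the active site of MMPs and, with different preferences, of ADAMs and ADAMTSs. In breast carcinoma cells this balance of proteases and inhibitors is known for its part in invasion and in the release of EGF receptor ligands.

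MDA-MB-231 is an established line from a triple-negative breast cancer. One group of 2 libraries came from cells given MGH-CP1, an inhibitor of the autopalmitoylation of TEAD transcription factors, for 24 h, and the other group of 2 libraries from cells given the vehicle, DMSO. The labels give the dose as 10 µM and the study's methods as 10 mM. No genetic change separates the groups, all libraries come from this single line, and no label says that replicates were separate cultures, so p-values measure the spread between these libraries, which may be technical. Values are FPKM, fragments per kilobase of gene length scaled to the library's total of fragments on genes, which allow levels to be compared between genes as well as between libraries. Since FPKM are shares of a library's RNA, more transcript per cell and a change in which cells made up the culture cannot be told apart.

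The libraries held 25455533 and 25508824 fragments for the vehicle and 17997221 and 17577930 for MGH-CP1, so the low values of the MGH-CP1 libraries rest on fewer fragments. Replicates correlated at r = 0.996 and 0.995 across genes, which are not independent replicates. The TEAD target genes CYR61, CTGF and ANKRD1 fell by 0.75, 0.66 and 0.66 on the log2(FPKM + 1) scale. All 8 markers of the line had a mean of at least 1 FPKM, but 5 of them were called lower after MGH-CP1 and their sum was 1982 and 1989 FPKM in the vehicle against 1654 and 1709 FPKM. Of 6 genes known to be low in it ESR1, PGR, CDH1 and FOXA1 were below that level while ERBB2 (24.7 to 28.4 FPKM) and GATA3 (4.17 to 5.65 FPKM) were above. Of the markers of other cell types, 3 of 7 fibroblast, 1 of 4 endothelial and 1 of 6 leukocyte genes reached 1 FPKM. The fibroblast list summed to 5.95 to 6.42 FPKM in the vehicle and 8.22 to 8.23 FPKM in the MGH-CP1 libraries, the leukocyte list to 1.81 to 2.48 and 3.38 to 4.11 FPKM, and the endothelial list to 1.33 to 1.56 and 0.964 to 1.22 FPKM, with COL1A2 and CD14 called higher. The leukocyte marker CD3E and the endothelial marker CDH5 were listed at 0 in every library. The part of these lists in the results was not tested.

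Of the 65 members, 20 had a mean of at least 1 FPKM over the 4 libraries and entered the test, and 12 of these had a mean of at least 10 FPKM. The 20 tested members were 4 MMPs, 6 ADAMs, 6 ADAMTSs and the 4 TIMPs. By mean level TIMP1, MMP14, TIMP3, TIMP2 and ADAM9 led the list, each above 100 FPKM in every library, and the plot of levels by library shows how few members lay in that range. The remaining 45 fell below the filter, and 13 of them were listed at 0 in all libraries.

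**Figure D1:**
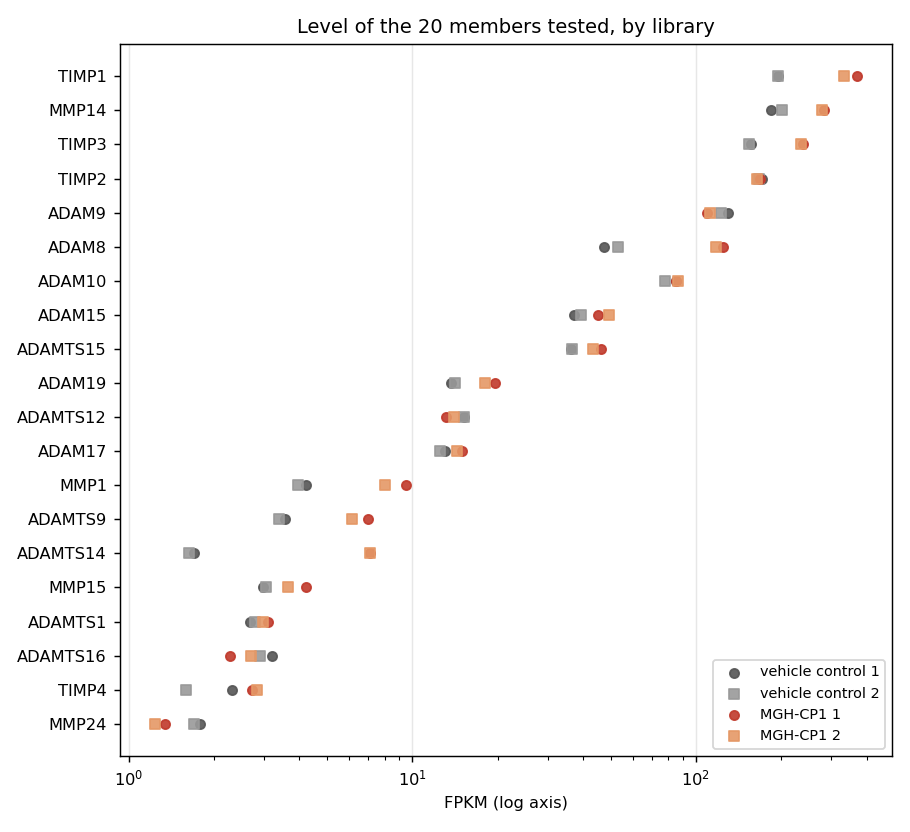
FPKM of the 20 tested members in each library, on a log axis, ordered by mean level, with a point for each of the 2 vehicle control and 2 MGH-CP1 libraries. TIMP1 is highest at 194 to 371 FPKM, and ADAMTS14 moves most, from 1.63 and 1.70 FPKM in the vehicle to 7.08 FPKM in both MGH-CP1 libraries.

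Among the 20 tested members 13 were higher after MGH-CP1, 1 was lower and 6 did not pass (limma on log2(FPKM + 1), Benjamini-Hochberg adjusted p under 0.05). That is 65.0% higher and 5% lower, against a background of 27.1% higher and 23.8% lower among all 12080 genes tested, of which 50.8% were called in either direction. The median log2 fold change was 0.30 for the members and 0.01 for all genes tested. In 15 members both MGH-CP1 values lay above both vehicle values and in 4 members below, compared with 39.8% and 37.4% of all genes tested, or 77.2% in either direction. A called rise of at least 0.5 on the log2 scale was reached by 7 members (background 10.4%), and a called rise of at least 1 by ADAMTS14 and ADAM8 (background 1.71%). No member had a called fall of either size (background 6.16% and 0.273%).

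**Figure D2:**
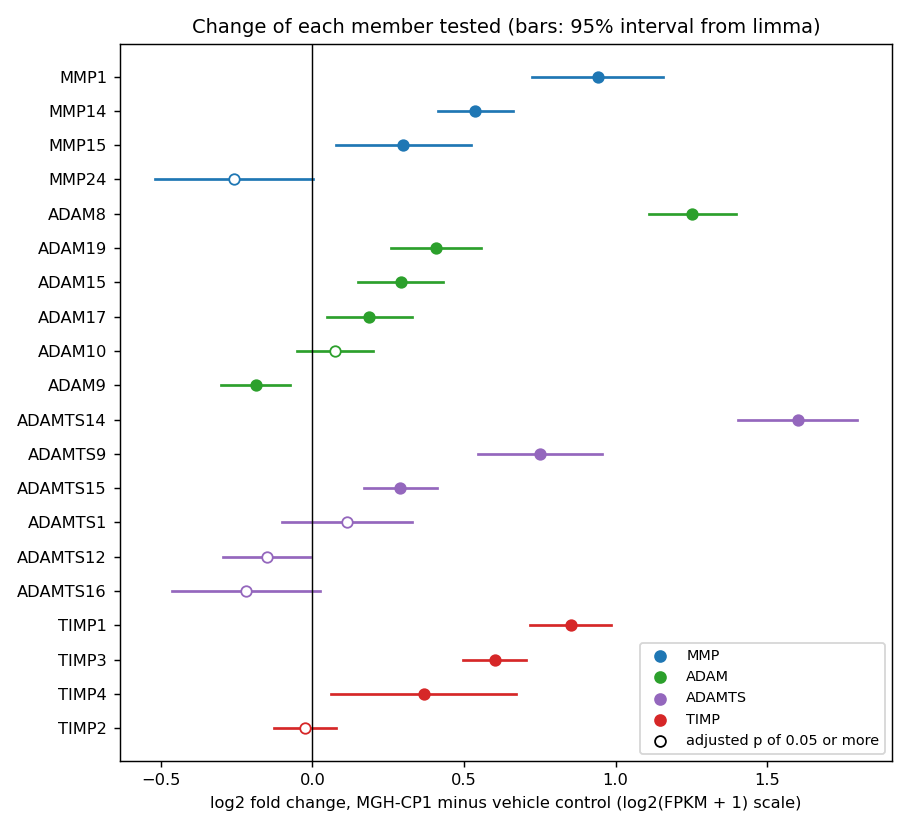
Log2 fold change of MGH-CP1 over vehicle control on the log2(FPKM + 1) scale for the 20 tested members, with bars for the 95% confidence interval of limma (n = 2 libraries per group) grouped and coloured by family. Open circles are members that did not pass, the largest rises are ADAMTS14 (1.60), ADAM8 (1.25), MMP1 (0.94) and TIMP1 (0.85), and ADAM9 (-0.19) is the single member called lower.

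**Figure D3:**
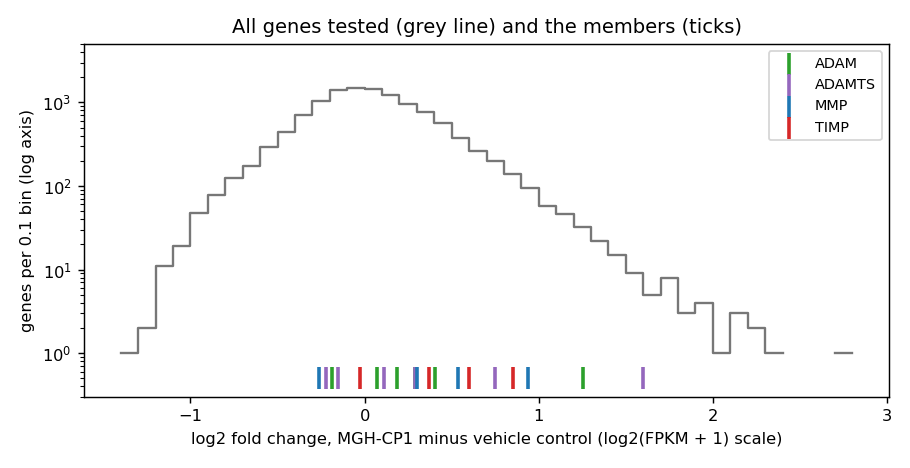
Distribution of log2 fold changes over all 12080 genes tested, as a step line of genes per bin of 0.1 on a log axis, with the 20 tested members as ticks coloured by family. Most members lie to the right of the median of all genes, which is 0.01, against 0.30 for the members.

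The TIMPs, the inhibitors, were all expressed, and 3 of 4 rose. That is 75% higher of only 4 genes, against 27.1% of all genes tested. TIMP1 (ENSG00000102265, hg19 chrX:47441712-47446188, plus strand) is a secreted inhibitor of most soluble MMPs. It measured 195 and 194 FPKM in the vehicle and 371 and 334 FPKM in the MGH-CP1 libraries. The groups lie far apart, with a mean ratio of 1.81, and the log2 fold change was 0.85 (SE 0.06, adjusted p = 3.29e-05 by limma). Of all genes tested, 2.96% rose more. TIMP1 lies within the bounds of SYN1 on the opposite strand, and SYN1 held only 0 to 11 fragments in any library against 7001 to 9436 for TIMP1.

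TIMP3 (ENSG00000100234, hg19 chr22:33197687-33259030, plus strand), which stays bound to the matrix and also inhibits ADAM17 and the aggrecan-cutting ADAMTSs, read 157 and 153 FPKM in the vehicle and 238 and 234 FPKM with MGH-CP1. Replicates differed little beside the gap between groups, and the log2 fold change was 0.60 (SE 0.04, adjusted p = 4.43e-05). TIMP4 (ENSG00000157150, hg19 chr3:12194551-12200851, minus strand) was the lowest of the inhibitors, at 2.31 and 1.59 FPKM in the vehicle and 2.73 and 2.83 FPKM after MGH-CP1. Its rise of 0.37 on the log2 scale (SE 0.13, adjusted p = 0.0478) rested on 67 to 97 fragments per library and kept its call in only 4 of 12 alternatives that share variance between genes. Without vehicle replicate 2, the lowest library, it was 0.19.

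TIMP2 (ENSG00000035862, hg19 chr17:76849059-76921469, minus strand), which joins MMP14 in the complex that activates pro-MMP2, had 171 and 167 FPKM in the vehicle and 168 and 164 FPKM after MGH-CP1. It was the only tested member whose groups overlapped, and the interval of its log2 fold change ran from -0.13 to 0.08 (adjusted p = 0.665). The ratio of TIMP1 to TIMP2 FPKM thus went from 1.14 and 1.16 to 2.21 and 2.03, a ratio chosen after the values were seen.

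Among membrane-type MMPs, MMP14 carried 97.3% of the summed FPKM of the 7 genes in the vehicle and 97.8% after MGH-CP1. MMP14 (MT1-MMP, ENSG00000157227, hg19 chr14:23305766-23318236, plus strand), a surface collagenase, measured 184 and 201 FPKM in the vehicle and 282 and 277 FPKM after MGH-CP1. The lower MGH-CP1 library was well above the higher vehicle library, giving a change of 0.54 on the log2 scale (SE 0.05, adjusted p = 0.000138). Set against TIMP2, whose level moved little, the ratio of TIMP2 to MMP14 FPKM was 0.925 and 0.835 in the vehicle and 0.595 and 0.593 after MGH-CP1. This ratio too was chosen after the values were seen. With TIMP2 nearly flat it restates the MMP14 values, so that its groups do not overlap is no separate result.

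MMP15 (MT2-MMP, ENSG00000102996, hg19 chr16:58059470-58080805, plus strand) was expressed at a far lower level, at 2.97 and 3.05 FPKM in the vehicle and 4.24 and 3.65 FPKM after MGH-CP1. Its log2 fold change of 0.30 (SE 0.10, adjusted p = 0.0318) lost its call under quantile normalization (adjusted p = 0.108), with no filter (0.126) and without MGH-CP1 replicate 1 (0.166), vehicle replicate 1 (0.111) or vehicle replicate 2 (0.0747). MMP24 (MT5-MMP, ENSG00000125966, hg19 chr20:33814457-33864801, plus strand) read 1.79 and 1.70 FPKM in the vehicle and 1.35 and 1.24 FPKM after MGH-CP1, which did not pass (log2 fold change -0.26, 95% interval -0.52 to 0.0016, adjusted p = 0.0891). It was called lower by voom on the recovered fragments (-0.43, adjusted p = 0.0357), under quantile normalization (adjusted p = 0.0196) and with no variance trend (adjusted p = 0.0204). MMP24 lies wholly within MMP24-AS1 on the opposite strand, which held 80.1 to 97.5 FPKM, and since no source used here says that counting used strand, reads of the pair cannot be told apart.

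Of the 15 secreted MMPs a single gene was tested. MMP1 (interstitial collagenase, ENSG00000196611, hg19 chr11:102660651-102668891, minus strand), which cuts fibrillar collagens, measured 4.21 and 3.94 FPKM in the vehicle and 9.53 and 8.0 FPKM after MGH-CP1. The fragments behind these values were 211 and 198 against 338 and 277, so the count was higher even though the MGH-CP1 libraries were shallower. Its log2 fold change was 0.94 (SE 0.09, adjusted p = 0.000145), with a mean ratio of 2.15, and 2.18% of all genes tested rose more.

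MMP1 stands in a row of 8 members on chromosome 11 (hg19 chr11:102391239-102826463) that also holds MMP7, MMP20, MMP27, MMP8, MMP10, MMP3 and MMP13. None of these 7 neighbours had more than 3 fragments in any library, and MMP20, MMP27 and MMP3 were listed at 0 in all. The gelatinases, which degrade basement membrane collagen, were near the limit of detection, MMP2 with 9, 9, 6 and 3 fragments and MMP9 with 1, 7, 4 and 0 in vehicle replicates 1 and 2 and MGH-CP1 replicates 1 and 2. Neither was tested.

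All 6 tested ADAMs are catalytically active members, and 4 rose, 1 fell and 1 did not pass. That is 66.7% higher and 16.7% lower of only 6 genes, against 27.1% and 23.8% of all genes tested. ADAM8 (ENSG00000151651, hg19 chr10:135075907-135090372, minus strand), a sheddase studied in triple-negative breast cancer for its part in invasion, had the largest rise among them. It measured 47.5 and 53.0 FPKM in the vehicle and 124 and 118 FPKM after MGH-CP1. It rose by 1.25 on the log2 scale (SE 0.06, adjusted p = 1.50e-05), the mean ratio was 2.41, and 0.704% of all genes tested rose more.

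ADAM9 (ENSG00000168615, hg19 chr8:38854388-38962663, plus strand), a broadly expressed sheddase, was the most abundant ADAM in the vehicle at 130 and 122 FPKM, against 109 and 112 FPKM after MGH-CP1. It fell by 0.19 on the log2 scale (SE 0.05, adjusted p = 0.0143). The call was lost without MGH-CP1 replicate 1 (adjusted p = 0.0858) or vehicle replicate 1 (0.0580), with no filter (0.0701) and with no variance trend (0.0571). With ADAM8 up and ADAM9 down, ADAM8 stood above ADAM9 in both MGH-CP1 libraries and below it in both vehicle libraries.

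ADAM10 and ADAM17 are the chief sheddases of Notch and of EGF receptor ligands. ADAM10 (ENSG00000137845, hg19 chr15:58887403-59042177, minus strand) had 85.0 and 78.0 FPKM in the vehicle and 85.3 and 86.2 FPKM after MGH-CP1, and its log2 fold change of 0.07 did not pass (95% interval -0.05 to 0.20, adjusted p = 0.292). ADAM17 (ENSG00000151694, hg19 chr2:9628615-9695921, minus strand) had 13.0 and 12.5 FPKM in the vehicle and 15.0 and 14.4 FPKM after MGH-CP1. Its small rise of 0.19 (SE 0.06, adjusted p = 0.0331) was lost when any 1 of the 4 libraries was left out, and the gene shares 8058 bases with IAH1 on the opposite strand. ADAM10 stayed at 5.69 to 6.54 times the FPKM of ADAM17 in every library.

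ADAM15 (ENSG00000143537, hg19 chr1:155023042-155035252, plus strand), which carries an integrin-binding motif, measured 37.3 and 39.5 FPKM in the vehicle and 45.1 and 49.3 FPKM after MGH-CP1, a rise of 0.29 on the log2 scale (SE 0.06, adjusted p = 0.00476) that was lost with no filter (adjusted p = 0.0555). ADAM19 (ENSG00000135074, hg19 chr5:156822542-157002783, minus strand), which can shed neuregulin, measured 13.7 and 14.2 FPKM against 19.6 and 18.0 FPKM, a log2 fold change of 0.41 (SE 0.06, adjusted p = 0.00126). In both genes every MGH-CP1 library was above every vehicle library.

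Of the 6 tested ADAMTSs 3 rose and 3 did not pass. That is 50% called, all of them higher. Of all genes tested 27.1% were called higher and 50.8% in either direction, so the called share was close to the background. ADAMTS14 (ENSG00000138316, hg19 chr10:72432559-72522197, plus strand), a procollagen N-proteinase that trims the amino-terminal propeptide of fibrillar collagens, had the largest rise of any tested member. It measured 1.70 and 1.63 FPKM in the vehicle and 7.08 FPKM in both MGH-CP1 libraries, from 228 and 219 fragments against 671 and 656. The mean ratio was 4.25 and the log2 fold change 1.60 (SE 0.09, adjusted p = 1.77e-05), a value that the added 1 FPKM shrinks for a gene this low. With voom on the recovered fragments, whose added offset is far smaller for this gene, it was 2.09, and ADAMTS14 ranked 28 of 12080 genes by rise in the main test.

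ADAMTS9 and ADAMTS15 cut proteoglycans such as versican and aggrecan. ADAMTS9 (ENSG00000163638, hg19 chr3:64501333-64673676, minus strand) went from 3.56 and 3.40 FPKM to 6.98 and 6.11 FPKM, a log2 fold change of 0.75 (SE 0.09, adjusted p = 0.000324). ADAMTS15 (ENSG00000166106, hg19 chr11:130318869-130346532, plus strand), the most abundant ADAMTS, went from 36.4 and 36.5 FPKM to 46.2 and 43.4 FPKM, a log2 fold change of 0.29 (SE 0.05, adjusted p = 0.00251). ADAMTS1 (ENSG00000154734), of the same proteoglycan-cutting group, had 2.69 and 2.78 FPKM against 3.11 and 2.98 FPKM and did not pass (log2 fold change 0.11, 95% interval -0.10 to 0.33, adjusted p = 0.336).

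ADAMTS12 (ENSG00000151388, hg19 chr5:33523640-33892297, minus strand), which cuts cartilage oligomeric matrix protein, had 15.2 FPKM in both vehicle libraries and 13.1 and 14.1 FPKM after MGH-CP1. ADAMTS16 (ENSG00000145536, hg19 chr5:5140443-5320417, plus strand) had 3.20 and 2.91 FPKM against 2.28 and 2.70 FPKM. Neither passed by limma on FPKM, with log2 fold changes of -0.15 (adjusted p = 0.0750) and -0.22 (adjusted p = 0.119). Both were called lower by voom on the recovered fragments, at -0.16 (adjusted p = 0.0196) and -0.30 (adjusted p = 0.0441).

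A test added after the data were seen, voom on genes with a mean of at least 10 fragments, reached some of the 45 members below the filter. It took 35 members, the 20 already tested included, and called 16 higher and 5 lower. Of the 15 below the filter it called 3 higher (20%) and 1 lower (6.67%), against a background of 27.2% higher and 22.1% lower (49.2% in either direction) among 14443 genes. ADAMTS6 (ENSG00000049192, hg19 chr5:64444563-64777747, minus strand), which acts on fibrillin microfibrils, had 267 and 189 fragments in the vehicle and 63 and 79 after MGH-CP1. This is the largest lower value of any member in that test (log2 fold change -1.15, SE 0.21, adjusted p = 2.87e-05), and in FPKM it was 1.43 and 1.01 against 0.479 and 0.615. ADAM28, MMP11 (stromelysin-3) and ADAMTS13, the von Willebrand factor protease, were called higher at 0.85 (adjusted p = 0.00205), 0.96 (adjusted p = 0.00672) and 1.62 (adjusted p = 0.00934). ADAMTS13 rests on 6 to 25 fragments and shares 3687 bases with REXO4 on the opposite strand, which held 698 to 1232 fragments, and MMP11 shares 218 bases with CHCHD10 on the opposite strand.

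The other low members tested that way were not called. ADAM22, an ADAM without catalytic activity, had 232 and 248 fragments in the vehicle and 145 and 157 after MGH-CP1 (log2 fold change -0.15, adjusted p = 0.424), and MMP19 had 68 and 108 against 79 and 65 (0.26, adjusted p = 0.377). ADAM12, MMP17, ADAMTS7, ADAM11, ADAMTS17, MMP28, MMP16, ADAMTS3 and ADAM23 likewise did not pass, with log2 fold changes from -0.49 to 0.89. A total of 18 members, MMP28 among them, had between 1 and 19 fragments in their highest library. The 13 members listed at 0 everywhere were MMP3, MMP20, MMP26, MMP27, ADAM2, ADAM7, ADAM18, ADAM30, ADAM33, ADAMTS5, ADAMTS10, ADAMTS18 and ADAMTS19. For these, a count of 0 allows up to 3 fragments per library, or 0.0130 to 0.144 FPKM depending on gene length and depth.

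Summed over each role, all groups of members stood higher in both MGH-CP1 libraries. The TIMPs summed to 525 and 516 FPKM in the vehicle and 779 and 735 FPKM after MGH-CP1 (ratio 1.45), and the share of TIMP1 went from 37.3% to 46.5%. The membrane-type MMPs summed to 190 and 206 against 289 and 283 FPKM (ratio 1.44), and the secreted MMPs to 5.70 and 5.93 against 12 and 10.4 FPKM (ratio 1.92), of which MMP1 was 70.0% and 78.6%. The ADAMs summed to 329 and 322 against 401 and 400 FPKM (ratio 1.23), within which ADAM9 went from 38.7% to 27.6%. Most of the rise of this sum, from a mean of 325 to 401 FPKM, was that of ADAM8, from a mean of 50.2 to 121 FPKM. The ADAMTSs summed to 65.0 and 64.4 against 80.1 and 78.3 FPKM (ratio 1.22). With 2 libraries against 2 the exact permutation test cannot go below p = 0.333, and each sum gave that value.

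**Figure D4:**
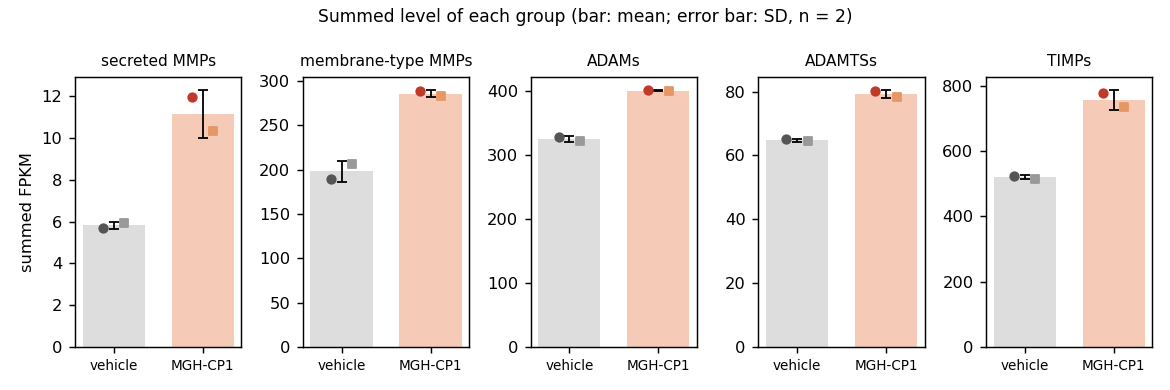
Summed FPKM of the members in each role group, on linear axes from 0 that differ between groups, with bars for the mean, error bars for the SD (n = 2) and a point for each library. In each of the 5 groups both MGH-CP1 libraries lie above both vehicle control libraries, with ratios from 1.22 for ADAMTSs to 1.92 for secreted MMPs.

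Genes that activate, traffic or restrain these proteases were taken from a list of 30, of which 20 were tested. Of these 10 were higher, 4 lower and 6 did not pass, that is 50% higher and 20% lower against the background of 27.1% and 23.8%. RHBDF1 (iRhom1), which escorts ADAM17 to the cell surface, went from 11.6 and 10.6 FPKM to 27.1 and 23.3 FPKM (log2 fold change 1.11, SE 0.08, adjusted p = 4.33e-05). TSPAN15, a tetraspanin that guides ADAM10, went from 18.8 and 19.9 FPKM to 33.9 and 31.3 FPKM (0.72, adjusted p = 7.82e-05). In the same group of tetraspanins TSPAN17 rose by 0.20 (adjusted p = 0.0406). TSPAN14 (0.01, adjusted p = 0.903) and TSPAN5 (0.07, adjusted p = 0.314) did not pass, and TSPAN33 was below the filter. TSPAN5, TSPAN14, TSPAN17 and TSPAN33 were named after their values were seen. ADAM17 and ADAM10 themselves had 0.19 and 0.07, and the difference from their partners was not tested. TSPAN10, another tetraspanin of that group, was 0.518 and 0.724 FPKM against 1.29 and 1.47 FPKM (0.56, adjusted p = 0.00990). With a mean of 0.621 FPKM in the vehicle it entered the test only through the MGH-CP1 libraries, so its call is no support for the count, and the call was lost with no filter (adjusted p = 0.0536) and without vehicle replicate 1 (0.0677). LRP1, the receptor that clears MMPs and TIMPs, was 3.79 and 4.06 against 6.03 and 6.57 FPKM (0.57, adjusted p = 0.000917).

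The regulators that fell include PLAU, the urokinase protease of the plasminogen system, which activates pro-MMPs. It went from 77.4 and 83.9 FPKM to 53.3 and 61.4 FPKM and fell by 0.49 on the log2 scale (adjusted p = 0.00102). CAV1, the caveolar coat protein, fell by 0.49 (adjusted p = 0.000100). PCOLCE2, an enhancer of procollagen C-proteinase, had -0.33 (adjusted p = 0.0499), a call lost under voom and when any 1 library was left out. Its mean after MGH-CP1 was 0.988 FPKM, so it entered the test through the vehicle libraries. PCOLCE, the other such enhancer, rose by 0.50 (adjusted p = 0.00644). FURIN, the convertase that activates membrane-type MMPs and ADAMs, and RECK, a surface inhibitor of MMPs, did not pass, at 0.06 (adjusted p = 0.327) and -0.11 (adjusted p = 0.350). PCOLCE, FURIN and RECK were named after their values were seen.

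Among 51 proteins known to be shed by ADAMs or MMPs, 37 genes were tested, of which 15 were higher, 9 lower and 13 did not pass, or 40.5% and 24.3%. The lower share is close to the background of 23.8%. The lists share genes, and LRP1, called higher, counts both here and among the regulators. AXL here and CAV1 among the regulators are also line markers that were called lower. AREG (amphiregulin), an EGF receptor ligand released by ADAM17, went from 12 and 15 FPKM to 34.7 and 33.2 FPKM (1.28, SE 0.09, adjusted p = 3.98e-05). ICAM1, an adhesion molecule, rose by 0.77 (adjusted p = 3.67e-05), CX3CL1, a membrane-bound chemokine, by 0.75 (adjusted p = 0.000382) and EFNA1, an ephrin, by 0.73 (adjusted p = 0.00529). The call of EFNA1 was lost with no filter (adjusted p = 0.0926), and leaving out a library moved its change between 0.52 and 0.94. The receptor kinase AXL fell most, from 274 and 293 FPKM to 149 and 187 FPKM (-0.76, SE 0.10, adjusted p = 0.000425). ALCAM, PTPRF and the proteoglycan SDC1 fell by 0.54 (adjusted p = 0.000200), 0.45 (adjusted p = 0.000679) and 0.38 (adjusted p = 0.00182).

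Several of the shed proteins are EGF receptor ligands besides AREG. TGFA, 30.2 and 32.9 FPKM against 41.6 and 41.3 FPKM, and EREG, 6.17 and 6.37 against 7.60 and 7.48 FPKM, rose by 0.38 (adjusted p = 0.000960) and 0.23 (adjusted p = 0.0258). HBEGF, 39.0 and 37.0 against 30.8 and 33.6 FPKM, fell by 0.23 (adjusted p = 0.0135). BTC, 1.10 and 0.933 against 1.74 and 1.31 FPKM, did not pass (0.32, adjusted p = 0.0806), and EGF, 0.668 and 0.466 against 1.29 and 0.968 FPKM, was below the filter. In the added voom test both were called higher, at 0.58 (adjusted p = 0.0397) and 1.00 (adjusted p = 0.000522). These ligands were named after their values were seen.

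**Figure D5:**
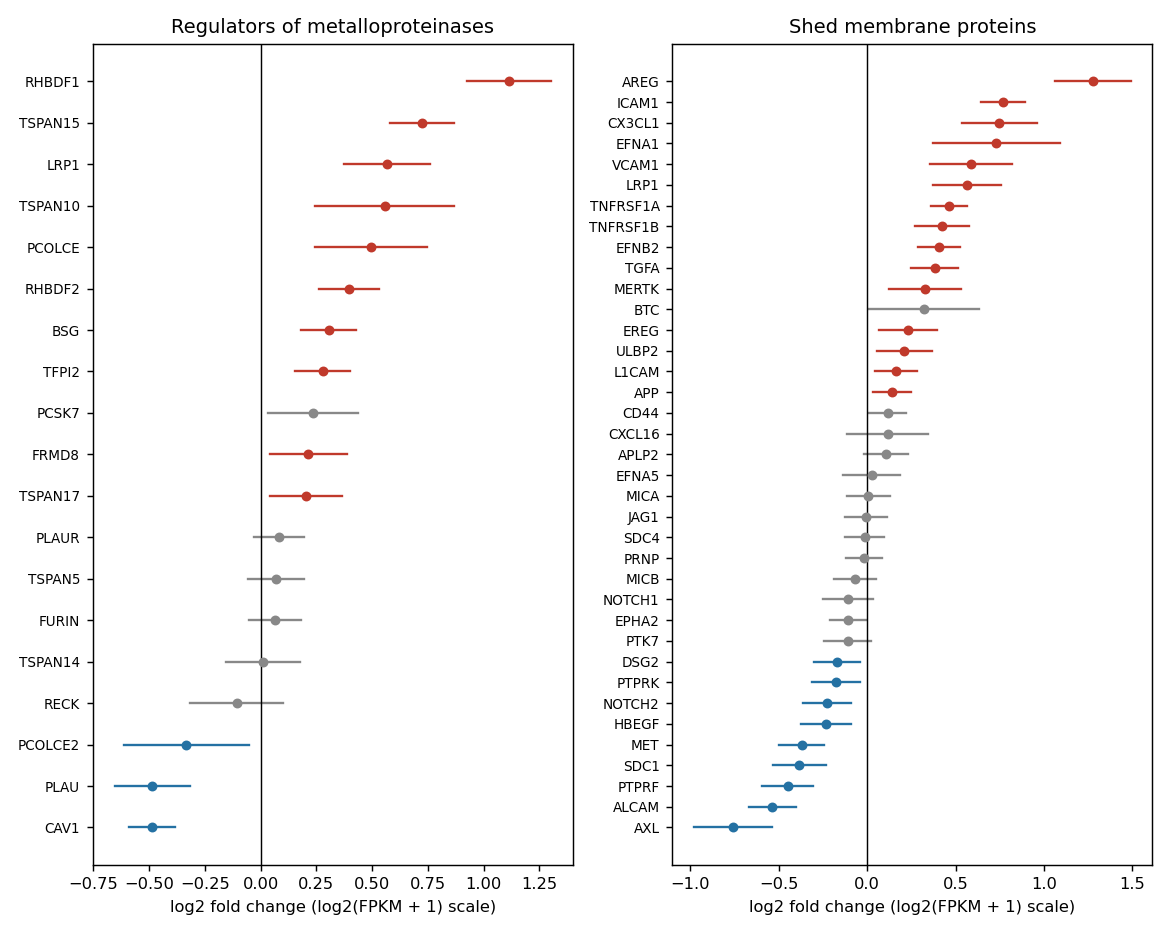
Log2 fold change of MGH-CP1 over vehicle control on the log2(FPKM + 1) scale for 19 of the tested regulators (left) and the 37 tested shed membrane proteins (right), with bars for the 95% confidence interval of limma (n = 2 libraries per group). Red marks genes called higher, blue those called lower and grey those that did not pass, with RHBDF1 (1.11) and AREG (1.28) at the top and CAV1 (-0.49) and AXL (-0.76) at the bottom.

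Relatives of the members outside the rule, 16 astacins, pappalysins and ADAMTS-like genes of which 15 were in the table, gave 4 tested genes. BMP1, the procollagen C-proteinase, went from 18.9 and 20.5 FPKM to 30.3 and 30.2 FPKM (0.59, SE 0.06, adjusted p = 0.000135). ADAMTSL5 rose by 0.29 (adjusted p = 0.0199), a call lost with no filter (adjusted p = 0.0701), under quantile normalization (0.0684) and without MGH-CP1 replicate 1 (0.0637), MGH-CP1 replicate 2 (0.0734) or vehicle replicate 1 (0.107). ADAMTSL1 and ADAMTSL4 did not pass. ADAMTS14, which trims the amino-terminal propeptide of fibrillar collagen, and BMP1, which trims the carboxy-terminal, were both higher, a pairing chosen after the values were seen. Of the other procollagen N-proteinases among the members, ADAMTS3 did not pass in the added voom test (0.17, adjusted p = 0.739). ADAMTS2 was not tested, with 3 and 2 fragments in the vehicle and 0 and 0 after MGH-CP1.

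The promoters of the members were read for the letters of TEAD sites (CATTCC or GGAATG) and of AP-1 sites (TGANTCA) on both strands, in windows from 250 bases before to 50 after the annotated start (RefSeq, GRCh38.p14). A window was matched for 39 of 65 members and 13 of 20 tested ones. The tested members without a window, which were not searched, were MMP1, TIMP2, ADAM9, ADAMTS1, ADAMTS9, ADAMTS15 and ADAMTS16. TEAD letters were in 5 of the 39 and in 14.0% of 35116 windows of the same length over all genes, and AP-1 letters in 4 of the 39 and in 7.71% of all. Of the 13 tested members with a window, ADAM17 and ADAMTS12 held the TEAD letters and ADAMTS12 the AP-1 letters. The 250 bases before the start are shown for the member with the largest rise (ADAMTS14, chr10:70672256-70672505, plus strand), the most abundant member (TIMP1, chrX:47582186-47582435, plus strand), the member with the largest lower value (ADAMTS6, chr5:65481921-65482170, minus strand), and the tested members with matches (ADAMTS12, chr5:33891991-33892240, minus strand, and ADAM17, chr2:9555831-9556080, minus strand). They are written 5′ to 3′ on the strand of the gene, and capitals mark the matched letters.
ADAMTS14: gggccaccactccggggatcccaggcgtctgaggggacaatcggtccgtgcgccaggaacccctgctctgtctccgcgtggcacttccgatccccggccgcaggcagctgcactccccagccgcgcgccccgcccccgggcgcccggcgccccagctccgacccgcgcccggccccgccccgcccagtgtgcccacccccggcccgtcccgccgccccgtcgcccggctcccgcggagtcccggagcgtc
TIMP1: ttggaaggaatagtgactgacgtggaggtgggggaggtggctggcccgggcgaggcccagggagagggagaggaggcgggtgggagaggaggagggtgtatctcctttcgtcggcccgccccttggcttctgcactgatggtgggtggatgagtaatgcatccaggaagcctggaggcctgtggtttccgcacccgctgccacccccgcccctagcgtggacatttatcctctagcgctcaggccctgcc
ADAMTS6: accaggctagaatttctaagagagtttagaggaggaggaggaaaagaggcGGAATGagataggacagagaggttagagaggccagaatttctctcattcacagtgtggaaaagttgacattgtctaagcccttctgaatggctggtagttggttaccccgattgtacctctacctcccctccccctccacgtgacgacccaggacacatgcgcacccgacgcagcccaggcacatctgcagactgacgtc
ADAMTS12: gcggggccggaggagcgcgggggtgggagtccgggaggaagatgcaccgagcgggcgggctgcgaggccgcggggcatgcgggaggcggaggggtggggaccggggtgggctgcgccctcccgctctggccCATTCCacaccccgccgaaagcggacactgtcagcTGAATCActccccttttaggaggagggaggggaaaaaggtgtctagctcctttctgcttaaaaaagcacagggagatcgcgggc
ADAM17: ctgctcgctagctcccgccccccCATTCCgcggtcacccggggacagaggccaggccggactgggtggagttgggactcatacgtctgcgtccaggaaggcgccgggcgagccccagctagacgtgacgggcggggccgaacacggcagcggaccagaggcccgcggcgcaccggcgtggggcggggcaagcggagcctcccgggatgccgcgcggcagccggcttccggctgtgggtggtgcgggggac

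The windows of ADAMTS14 and TIMP1 hold neither set of letters and so have no capitals. In ADAMTS6 GGAATG begins at -200 from the start, in ADAM17 CATTCC begins at -227, and in ADAMTS12 CATTCC and TGAATCA begin at -119 and -84 and do not overlap. A match of letters in a window is a description of sequence, and no match says only that these letters are not in this window. No binding was measured in these libraries.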

How the data were processed

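RNA was sequenced from 4 libraries of MDA-MB-231 cells, 2 given MGH-CP1 and 2 given vehicle, grouped by their labels. The authors deposited FPKM per gene, per the submitters' processing notes after base calling with CASAVA 1.8 and alignment with STAR to hg19. The counting tool and its strand setting are not given in the sources used here. FPKM multiplied by gene length was a whole multiple of a single step per library for 100% of values (within 0.01 fragments), which gave the fragment numbers (17577930 to 25508824 per library, 67 to 19694 per tested member). Counting error alone is small for members with many fragments but not for the lowest, such as TIMP4 with 67 to 97. Across genes, replicates differed by more than sampling noise. The columns were matched to samples by condition and replicate, DMSO being the vehicle.

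From the deposited FPKM, log2(FPKM + 1) of the 12080 genes with a mean of at least 1 FPKM entered the fit of limma 3.58.1 (R 4.3.3, lmFit and then eBayes with a trend). Its two-sided p-values were adjusted by the Benjamini-Hochberg method across those genes, and calls were made under 0.05. Simulated libraries in which 200 genes were changed were used to check the code. Summed FPKM were compared by exact permutation. A fold change on this scale understates that of low genes. Named were every member with a mean of at least 1 FPKM, those below with at least 20 fragments in a library, the 4 called genes with the largest non-overlapping change per list and direction, and CYR61, CTGF and ANKRD1. A regulator counted in its list is not reported here by name. Genes outside the rule are marked as chosen after seeing values. The members, gene lists and tests were chosen with earlier results of these data known. Alternatives were a pseudocount of 0.1, no filter, a mean of at least 5 FPKM, median-ratio scaling, quantile normalization, the replicate block, no variance trend, no shared variance, voom on recovered fragments and leaving out each library, and, added after seeing the data, voom on genes with a mean of at least 10 fragments.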

Additional observations from a re-analysis of the deposited data

How the results depend on the processing

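Of the 14 called members, 9 (ADAM8, ADAM19, ADAMTS9, ADAMTS14, ADAMTS15, MMP1, MMP14, TIMP1 and TIMP3) stayed called in their direction under every alternative that shares variance between genes, and ADAM9, ADAM15, ADAM17, MMP15 and TIMP4 lost the call under at least 1. No member changed sign past the threshold. Without shared variance no member was called (0 higher, 0 lower), nor any regulator (0 higher, 0 lower), and 1 shed substrate was higher and 0 lower, with 9 higher and 4 lower of all 12080 genes by limma and 4947 at an unadjusted p under 0.05, against 3273 and 2869 in the analysis as reported. With no filter, which adjusts over 24878 genes, 9 members were higher, against 13 in the analysis as reported, and 0 were lower. The other counts were 6 regulators higher, 9 shed substrates higher and 5 lower, and 2280 higher and 1844 lower of all genes. The members called lower were 3 of 20 under quantile normalization and 4 of 20 by voom, against 1 of 20. By voom on genes with a mean of at least 10 fragments they were 5 of 35. Of all genes, 3221 of 12080, 3113 of 12080 and 3186 of 14443 were lower in these settings, against 2869 of 12080. The cause of the differences in counts was not tested. Leaving out each library gave 10 to 11 members higher and 0 to 1 lower, and 5 to 8 shed substrates lower. No label says whether replicate numbers pair the libraries. The deviations of same-numbered libraries correlated at 0.0777 over 12080 genes, which cannot decide it with 2 libraries per group. With the replicate block 13 members were higher and 1 lower, with 3466 higher and 3052 lower of all genes. The median log2 fold change of all genes stayed between -0.03 and 0.04. With no filter 32 members of mean below 1 FPKM also entered the test, and 0 of them were called.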
